A study of Mus musculus with 7 samples.

Results

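The Hoxb genes form 1 of the 4 Hox clusters of the mouse. The 6 genes described here, Hoxb1, Hoxb2, Hoxb4, Hoxb6, Hoxb7 and Hoxb9, were taken by the gene symbol that the array's annotation gives to each probe. They were read by 7 of the 25697 probes on the array, with 2 probes for Hoxb1 and 1 for each of the others. They were 6 of the 16593 gene symbols listed and 6 of the 9213 genes tested. The array also carried Hoxb3, Hoxb5, Hoxb8 and Hoxb13, so 10 Hoxb genes were measured in all.

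Hox genes encode homeodomain transcription factors that give cells their position along the head-to-tail axis. Within a cluster the genes are switched on in the order in which they lie on the chromosome: those at the Hoxb1 end come on first and mark the hindbrain, and those at the Hoxb9 end follow and mark the trunk. Retinoic acid, Wnt and Fgf signals and the caudal-type Cdx factors are known to open the clusters in the embryo, and Polycomb complexes keep them silent in pluripotent cells.

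Expression was read on Illumina bead arrays in 7 mouse pluripotent lines, each with a single array. OG2.2 and OG2.1, together with E3, E5, T9 and C1a1, made up the 6 epiblast stem cell (EpiSC) lines. R1 was the 1 embryonic stem cell (ESC) line. EpiSCs resemble the epiblast after implantation, and ESCs resemble the earlier epiblast of the blastocyst. The labels give the cell type and the name of each line, and a further label headed spot14 gfp only repeats that name; strain, passage, sex and culture were not given in the sources used here. Lines stood in as replicates, so p-values measure the spread between lines, and a line could not be told apart from its culture or its array. In such bulk RNA, a level set by fewer expressing cells and one set by less RNA per cell cannot be told apart.

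Median signals ran from 123 to 131 units, and 10642 to 11574 probes per array were above background, meaning a detection p under 0.01 against the negative control beads of that array. Of 10 pluripotent epiblast markers, 10 were above background in OG2.2, against 9 to 10 in the other 5 EpiSC lines and 9 in R1. Their mean log2 level was 10.72 in OG2.2, against 10.66 to 11.39 in the other 5 EpiSC lines. In OG2.2 minus the mean of those 5 lines, 1 of the 10 differences was positive. The median was -0.28, beside -0.02 over all genes tested, and 0 of the 10 were highest in OG2.2 among the EpiSC lines. Of the 11 naive ESC markers on the array, 3 were above background in OG2.2, against 3 to 5 in the other 5 EpiSC lines and 9 in R1.

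Gene starts are shown for Hoxb1, Hoxb4 and Hoxb8, so that the levels can be read beside the letters of the cluster. These 3 were the Hoxb genes with a sequence in the set of gene starts used here. Hoxb1 and Hoxb4 were above background in OG2.2 and Hoxb8 was not. Each sequence runs from 250 bases before to 50 bases after the start of the gene, on the plus strand of chromosome 11 in GRCm38.p6, as given by RefSeq. Capitals mark matches on either strand to TGATNNAT, a site of the type bound by Pbx with a Hox protein, or to TTTATG, a site of the type bound by Cdx factors.
Hoxb1, chr11:96365508-96365807: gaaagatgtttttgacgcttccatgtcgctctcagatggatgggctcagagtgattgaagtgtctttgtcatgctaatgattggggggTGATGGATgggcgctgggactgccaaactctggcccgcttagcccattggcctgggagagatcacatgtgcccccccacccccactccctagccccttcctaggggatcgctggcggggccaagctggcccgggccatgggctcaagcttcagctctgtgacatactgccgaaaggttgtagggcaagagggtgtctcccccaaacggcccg
Hoxb4, chr11:96318017-96318316: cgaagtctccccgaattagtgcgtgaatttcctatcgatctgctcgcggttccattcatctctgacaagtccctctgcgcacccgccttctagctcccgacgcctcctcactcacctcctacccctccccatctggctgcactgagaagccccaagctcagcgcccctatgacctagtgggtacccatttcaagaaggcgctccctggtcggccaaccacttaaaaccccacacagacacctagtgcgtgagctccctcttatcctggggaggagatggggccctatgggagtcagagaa
Hoxb8, chr11:96281655-96281954: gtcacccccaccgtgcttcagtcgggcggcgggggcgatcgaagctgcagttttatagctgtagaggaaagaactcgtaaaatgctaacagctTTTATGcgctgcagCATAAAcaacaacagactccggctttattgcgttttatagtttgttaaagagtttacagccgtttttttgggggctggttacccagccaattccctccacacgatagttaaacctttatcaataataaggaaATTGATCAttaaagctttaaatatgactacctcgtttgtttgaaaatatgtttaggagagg

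The window of Hoxb1, a gene known to keep itself on in the hindbrain through Pbx and Hox sites, held 1 match to TGATNNAT. Hoxb8 held 1 match to TGATNNAT and 2 to TTTATG, and Hoxb4 held 0 of either. The Meis-type site TGACAG had 0 matches in all 3 windows. No match overlapped another. Among all 32851 gene starts of the same length in that set, 8.85% held TGATNNAT, 11.9% held TTTATG and 19.2% held TGACAG. Base composition differed as well, with 59.3% G and C at Hoxb1, 58.0% at Hoxb4 and 42.3% at Hoxb8. These matches describe the letters of the windows and do not show that a factor binds there.

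OG2.2 stood apart from the rest of the lines at the Hoxb cluster. All 6 genes were above background in OG2.2. OG2.1 had 1 above background (Hoxb2), R1 had 1 (Hoxb7), and E3, E5, T9 and C1a1 had 0. The average normalized log2 level of the 6 genes was 7.22 in OG2.2, against 5.22 for OG2.1, 4.61 in E3, 4.51 in E5, 4.60 in T9, 4.60 in C1a1 and 4.93 in R1. The plot of levels by gene shows that the points of OG2.2 clear those of the other arrays for each of the 6 genes.

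**Figure D1:**
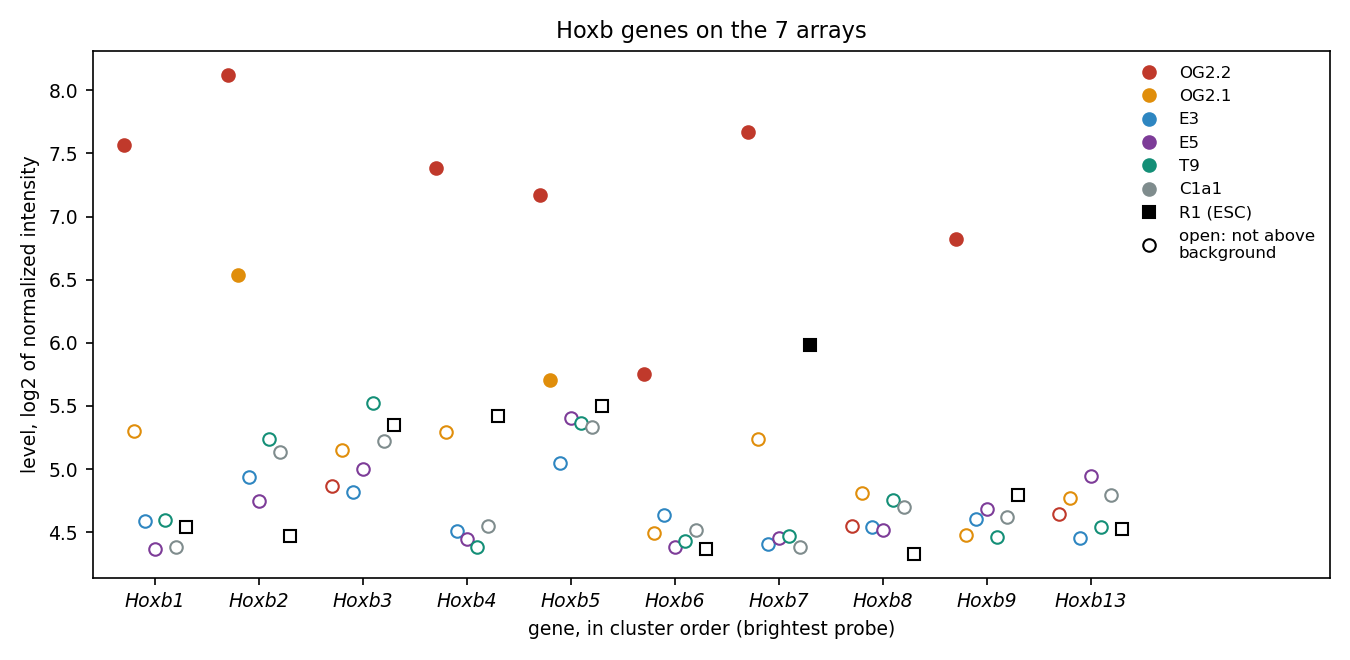
Level of each Hoxb gene (vertical axis, log2 of normalized intensity) on the 7 arrays, with genes in cluster order along the horizontal axis and 1 point per line; filled points are above background (detection p under 0.01) and open points are not. OG2.2 is above background for 7 of the 10 genes, with levels of 5.75 to 8.12, and Hoxb3, Hoxb8 and Hoxb13 have unfilled points on all 7 arrays.

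Hoxb1, which gives the fourth hindbrain segment its identity, lies at one end of the cluster. Its brighter probe read a raw signal of 288.2 units in OG2.2, against 131.5 for OG2.1, 108.5 for E3, 98.4 for E5, 114.5 for T9 and 100.4 for C1a1, with 109.3 for R1. After normalization its log2 level was 7.57 in OG2.2, against 5.30 for OG2.1, 4.59 in E3, 4.37 in E5, 4.60 in T9 and 4.39 in C1a1, with 4.54 in R1. OG2.2 lay above all other arrays, and the other 6 were below background. The difference between OG2.2 and the mean of the other 5 EpiSC lines (4.65 ± 0.38, SD, n = 5) was 2.92 on the log2 scale (SE 0.38; limma adjusted p = 0.161). The second Hoxb1 probe gave the same picture at a lower brightness, with a level of 6.69 in OG2.2, against 4.50 to 4.69 in the other 5 EpiSC lines and 4.55 in R1. Fitted on its own, that probe differed by 2.12 (SE 0.23).

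Hoxb2, a hindbrain gene that acts downstream of Hoxb1 and Egr2, was the member found in both OG2 lines. Its log2 level was 8.12 in OG2.2, against 6.54 for OG2.1, 4.93 in E3, 4.74 in E5, 5.24 in T9 and 5.13 in C1a1, with 4.47 in R1. The raw signals were 374.0 units in OG2.2 and 190.6 for OG2.1, against 116.6 to 136.3 in the other 4 EpiSC lines and 105.8 in R1. OG2.2 was highest and OG2.1 second, and both were above background. OG2.2 differed from the mean of the other 5 lines (5.32 ± 0.71, SD, n = 5) by 2.80 (SE 0.63; limma adjusted p = 0.565).

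Hoxb4, a gene of the posterior hindbrain that is also known for expanding blood stem cells when overexpressed, stood at 7.38 in OG2.2. It stood at 5.29 for OG2.1, 4.51 in E3, 4.44 in E5, 4.38 in T9 and 4.55 in C1a1, with 5.42 in R1. OG2.2 was the highest array, and OG2.1 and R1 came next, below background but close to the threshold. The difference between OG2.2 and the other 5 lines (4.63 ± 0.37, SD, n = 5) was 2.75 (SE 0.38; limma adjusted p = 0.173).

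Hoxb6, a gene of the trunk and lateral mesoderm, had the smallest difference of the 6. Its level was 5.75 in OG2.2, against 4.49 for OG2.1, 4.63 in E3, 4.38 in E5, 4.43 in T9 and 4.52 in C1a1, with 4.37 in R1. The raw signal was 149.1 units in OG2.2, against 99.8 to 110.1 in the other 5 EpiSC lines and 98.9 in R1. OG2.2 again exceeded each of them, by 1.26 over their mean (4.49 ± 0.10, SD, n = 5; SE 0.23; limma adjusted p = 0.371).

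Hoxb7, a trunk gene whose promoter is widely used to drive transgenes in the kidney's ureteric bud, had the largest difference. Its raw signal was 302.7 units in OG2.2, against 98.4 to 129.5 in the other 5 EpiSC lines and 153.2 in R1. Its level was 7.67 in OG2.2, against 5.24 for OG2.1, 4.41 in E3, 4.46 in E5, 4.47 in T9 and 4.38 in C1a1, with 5.98 in R1. R1 was the one other array above background, and OG2.1 lay just outside the threshold with a detection value of 0.0276. OG2.2 differed from the other 5 lines (4.59 ± 0.36, SD, n = 5) by 3.07 (SE 0.37; limma adjusted p = 0.161).

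Hoxb9, which acts with the other group 9 Hox genes in shaping the ribs, lies farthest toward the trunk end among the 6. Its raw signal was 210.9 units in OG2.2, against 102.0 to 114.7 in the other 5 EpiSC lines and 118.9 in R1. Its level was 6.82 in OG2.2, against 4.48 for OG2.1, 4.61 in E3, 4.69 in E5, 4.46 in T9 and 4.62 in C1a1, with 4.80 in R1. No other array came near that level, OG2.1 included. The difference from the other 5 lines (4.57 ± 0.10, SD, n = 5) was 2.25 (SE 0.23; limma adjusted p = 0.114). The 5 lines of that mean, like R1, were below background, so its small SD is that of background readings.

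Because 5 of the 6 genes were below background in the other 5 EpiSC lines, their folds are lower bounds. As the comparison level, each array gave the lowest normalized level of any probe it detected, or that of the gene itself where this was higher. On that measure OG2.2 was at least 4.02-fold higher for Hoxb1, at least 3.53-fold for Hoxb4, at least 1.14-fold for Hoxb6, at least 4.30-fold for Hoxb7 and at least 2.39-fold for Hoxb9. For Hoxb2, measured in OG2.1 and below background in 4 of the other 5 lines, no fold is given.

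Limma called 0 of the 6 genes at an adjusted p under 0.05 in OG2.2 minus the other 5 lines, and it called 0 of 9213 genes (0%). At an unadjusted p under 0.05, all 6 were higher in OG2.2, and 270 of all genes (2.93%) were. All 6 were also highest in OG2.2 among the EpiSC lines, as were 16.3% of all genes. Detection in OG2.2 and in none of the other 5 EpiSC lines held for 5 of the 6, and for 0.955% of all genes. The median difference of the 6 genes was 2.78, beside -0.02 over all genes tested. These counts carry a selection: Hoxb1, Hoxb4, Hoxb6 and Hoxb9 were above background on OG2.2 alone and were tested because of that array, which favours positive differences there. Hoxb2 also entered through OG2.1 and Hoxb7 through R1.

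The size of the difference depended on how the background was handled, and its direction did not. Median scaling gave values within 0.05 of those above for each gene. The authors' deposited log2 values gave 4.61 for Hoxb1, 3.69 for Hoxb2, 4.43 for Hoxb4, 2.72 for Hoxb6, 4.88 for Hoxb7 and 3.84 for Hoxb9. Without background correction the same 6 differences shrank to between 0.49 (Hoxb6) and 1.47 (Hoxb7). OG2.2 stayed higher under all 4 treatments of the values.

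**Figure D2:**
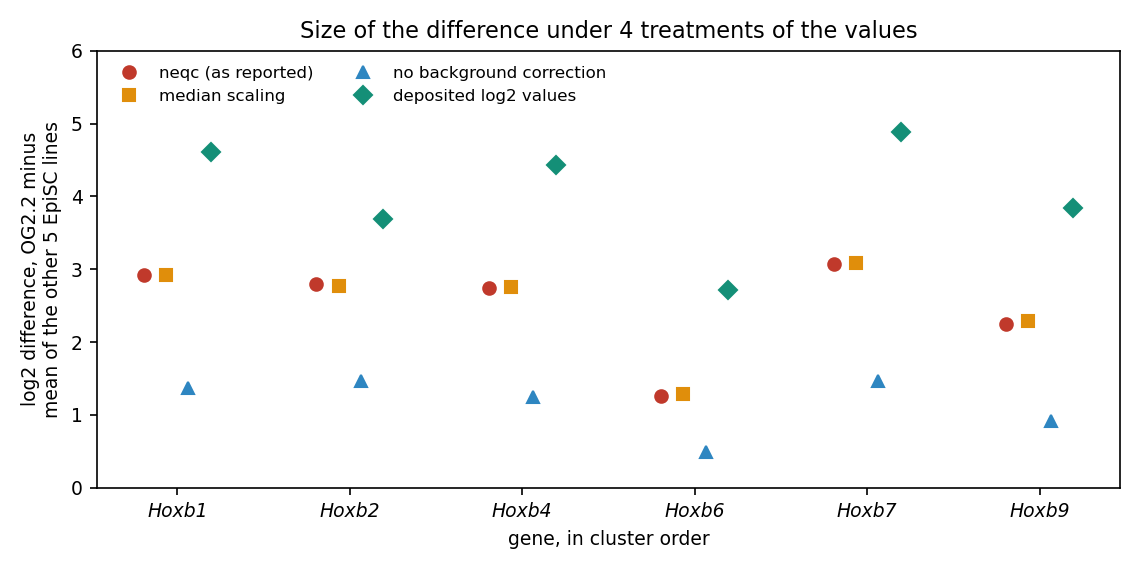
Difference between OG2.2 and the mean of the other 5 EpiSC lines (vertical axis, log2) for each of the 6 genes (horizontal axis), with 1 marker per treatment of the values: neqc, median scaling, no background correction, and the deposited log2 values. All markers lie above 0, the uncorrected ones lowest and the deposited ones highest.

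OG2.1 came second to OG2.2 among the EpiSC lines for Hoxb1, Hoxb2, Hoxb4 and Hoxb7, at levels near background for 3 of them. With the detection threshold relaxed to 0.05, 4 of the 6 genes were above background in OG2.1 (Hoxb1, Hoxb2, Hoxb4 and Hoxb7), against 6 in OG2.2, 0 in E3 and E5, 1 in T9 (Hoxb2), 1 in C1a1 (Hoxb2) and 2 in R1 (Hoxb4 and Hoxb7). In OG2.1 Hoxb1 passed through its brighter probe alone (detection value 0.0213), and its dimmer probe did not (0.226). Set against the other 5 EpiSC lines, OG2.2 included, limma called 0 of the 6 for OG2.1, and 4 of all genes (0.0434%). At an unadjusted p under 0.05 it also placed 0 of the 6, beside 5.98% of all genes. Set against E3, E5, T9 and C1a1 alone, OG2.1 stood at 1.53 for Hoxb2 (adjusted p = 0.252), 0.82 for Hoxb4 (0.472), 0.81 for Hoxb1 (0.516) and 0.81 for Hoxb7 (0.471). Hoxb6 (0.0035) and Hoxb9 (-0.11) lay near 0. None of these passed, so OG2.1 was not shown to differ from the 4 lines.

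The calls for OG2.2 turned on whether OG2.1 was in the comparison. Without OG2.1, limma called 14 genes in OG2.2, 12 of them higher (0.13% of all genes), and 4 of those 12 were Hoxb1 (3.08, adjusted p = 0.0244), Hoxb2 (3.11, 0.0280), Hoxb4 (2.91, 0.0244) and Hoxb7 (3.24, 0.0193). These are the 4 genes that were above background in OG2.1 at the relaxed threshold. At the main detection threshold all 4 were below background in E3, E5, T9 and C1a1. The spread among those lines is thus that of background readings, and the calls do not measure spread between lines expressing these genes. Hoxb1 and Hoxb4 were also tested because OG2.2 alone detected them, which favours positive differences there. Hoxb9 (2.23, adjusted p = 0.0561) and Hoxb6 (1.26, 0.320) did not pass. Leaving out E3, E5, T9 or C1a1 in place of OG2.1 left 0 of the 6 called.

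The remaining Hoxb genes did not all follow. Hoxb5, a gene of the vagal level known in neural crest and blood stem cells, was above background in both OG2 lines, at a level of 7.17 in OG2.2 and 5.71 for OG2.1, against 5.05 in E3, 5.40 in E5, 5.37 in T9 and 5.33 in C1a1, with 5.50 in R1. Its difference was 1.80 (SE 0.29; limma adjusted p = 0.270). Hoxb8, a trunk gene active in myeloid progenitors, stood at 4.55 in OG2.2, against 4.52 to 4.81 in the other 5 EpiSC lines and 4.33 in R1, and was above background nowhere. Hoxb3 was above background with none of its 3 probes, and their levels in OG2.2 were 4.87, 5.30 and 5.02. The first of them was brightest in T9 (5.52), just outside the threshold. Hoxb13, the most posterior gene, stood at 4.65 in OG2.2, against 4.46 to 4.94 in the other 5 EpiSC lines and 4.53 in R1. How well each probe hybridizes was not tested, so these values do not show that Hoxb3, Hoxb8 and Hoxb13 were silent in OG2.2.

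Genes beside the cluster were examined to see whether the difference ran beyond it. Limma called no gene at all in OG2.2 minus the other 5 EpiSC lines, so the test cannot set neighbours apart from the Hoxb genes. Of the 6 protein-coding genes on each side, 11 of 12 were on the array and 8 were tested. Their differences ran from 0.16 for Nfe2l1, a stress response transcription factor, to 1.05 for Cbx1, a heterochromatin protein (SE 0.35, adjusted p = 0.850). Cbx1 stood at 8.09 in OG2.2, against 6.61 to 7.38 in the other 5 lines. Nearest to the cluster among the tested genes, Snx11, a membrane trafficking gene, differed by 0.21 (SE 0.36) on the Hoxb1 side. Atp5g1, an ATP synthase subunit gene, differed by 0.21 (SE 0.29) on the other side. All 8 differences were positive, beside a median of -0.02 over all genes tested. Among the EpiSC lines only Cbx1 and Cdk5rap3 were highest in OG2.2. Snf8, Ube2z, Snx11 and Copz2 were higher in C1a1, Atp5g1 in E5 and Nfe2l1 in T9. Of the 8 genes, 7 were above background on all 7 arrays.

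**Figure D3:**
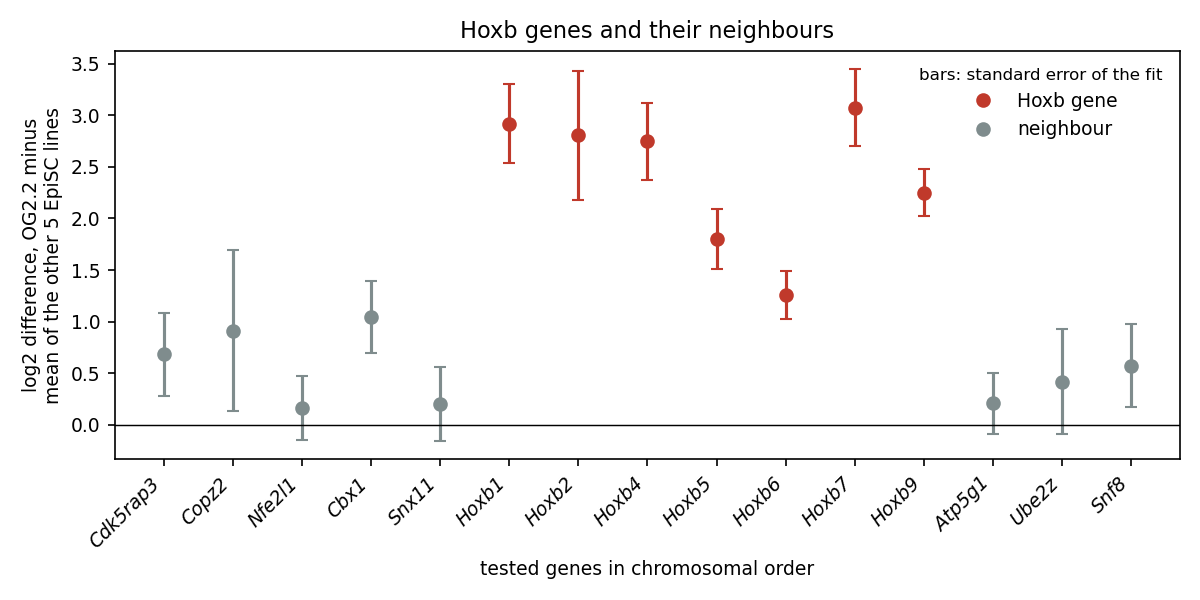
Difference between OG2.2 and the mean of the other 5 EpiSC lines (vertical axis, log2, bars are the standard error of the fit) for the tested genes in chromosomal order (horizontal axis), with Hoxb genes and neighbours coloured apart. The 7 Hoxb points lie between 1.26 and 3.07, and the 8 neighbours between 0.16 and 1.05.

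The EpiSC lines as a group were compared with R1, the ESC line. The fit gives R1, with its 1 array, the spread found among the EpiSC lines, and cell type cannot be told apart from the R1 line or its array. Limma called 0 of the 6 genes, with 0 also at an unadjusted p under 0.05, whereas 15.2% of all genes were called and 29.1% had such an unadjusted p. Hoxb7 averaged 5.10 ± 1.30 (SD, n = 6) in the EpiSC lines and 5.98 in R1, a difference of -0.88 (SE 1.12, limma adjusted p = 0.654). Hoxb2 averaged 5.79 ± 1.31 in the EpiSC lines and 4.47 in R1, a difference of 1.31 (SE 1.13, adjusted p = 0.497). Without OG2.2, Hoxb7 stood at -1.39 and Hoxb4 at -0.79. The EpiSC lines left were all below background for both genes, and R1 was too for Hoxb4. The spread in that fit is thus that of background readings. With OG2.2 included, Hoxb4 stood at -0.33 (adjusted p = 0.864). The other members, Hoxb1 (0.59), Hoxb6 (0.33) and Hoxb9 (0.15), were below background in R1.

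Among the other 3 clusters the same array was high. Of 16 Hoxa, Hoxc and Hoxd genes tested, 12 were highest in OG2.2 among the EpiSC lines, beside 16.3% of all genes. At an unadjusted p under 0.05, 12 were higher there, beside 2.93% of all genes, and 0 passed (median difference 1.78). The selection described for the Hoxb genes holds here too, since Hoxd3, Hoxd4, Hoxd8, Hoxd9, Hoxd10 and Hoxa9 were above background on OG2.2 alone. Levels of Hoxc6, a trunk gene, were 9.77 in OG2.2 and 6.18 for OG2.1, against 4.45 to 5.01 in the other 4 EpiSC lines. Levels of Hoxd4, the Hoxd counterpart of Hoxb4, were 7.58 in OG2.2 and 4.95 for OG2.1. Hoxd11 (-0.47), Hoxa13 (-0.05), Hoxc4 (0.04) and Hoxc13 (0.0037) were near or below 0. Of these, Hoxa13 alone was above background in OG2.2. Hoxd11 was tested through E5, Hoxc13 through R1, and Hoxc4 through E5 and R1, so their OG2.2 values are background readings. Among genes of the posterior groups, Hoxc9 (3.58), Hoxc10 (2.21), Hoxd9 (1.44), Hoxd10 (1.44) and Hoxa9 (1.11) had positive differences. The posterior genes Hoxd11, Hoxa13 and Hoxc13 did not share them.

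**Figure D4:**
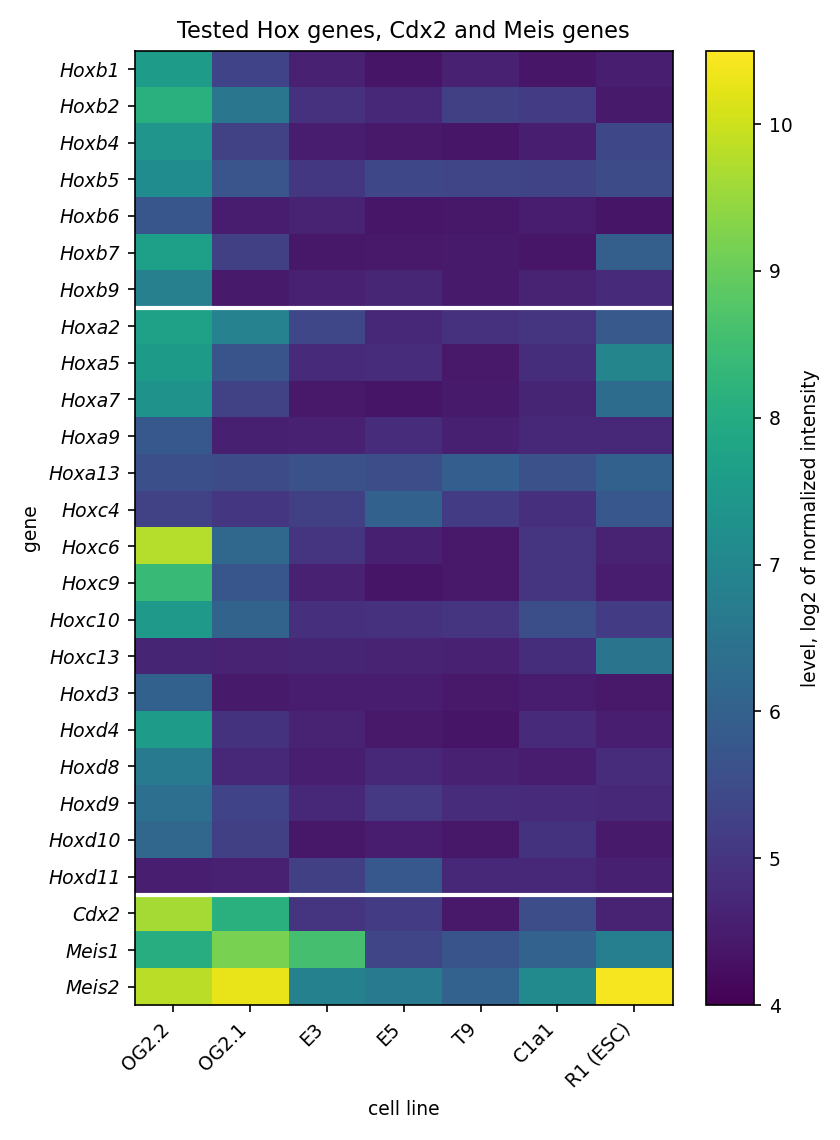
Level (colour, log2 of normalized intensity) of the tested Hox genes, Cdx2, Meis1 and Meis2 (rows) in the 7 lines (columns), with white lines between the Hoxb genes, the other Hox genes and the last 3 genes. The OG2.2 column is bright for the Hoxb genes and for Hoxc6 at 9.77, OG2.1 shares Hoxb2 at 6.54 and Cdx2 at 8.13, and R1 shows Hoxb7 at 5.98.

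Regulators of Hox clusters were read from a list of 25, not all of them activators. Of these, 23 were on the array and 16 were tested. Limma called no gene at all in OG2.2 minus the other 5 EpiSC lines, the 16 included. At an unadjusted p under 0.05, 5 were higher there, beside 2.93% of all genes, and 0 were lower. The median difference was 0.49, beside -0.02 over all genes tested, and 11 of the 16 differences were positive. Cdx2, the caudal-type factor that acts on posterior Hox genes, stood at 9.63 in OG2.2 and 8.13 for OG2.1, against 4.99 in E3, 5.13 in E5, 4.44 in T9 and 5.54 in C1a1, with 4.65 in R1. The OG2 lines had the highest levels and the others lay well below, a difference of 3.99 for OG2.2 (SE 1.21, adjusted p = 0.757). Wnt5a, a Wnt ligand of the elongating body axis, stood at 7.58 in OG2.2 and 7.26 for OG2.1, against 5.05 to 5.74 in the other 4 EpiSC lines. The retinoic acid binding protein genes Crabp1 (1.78, SE 0.71) and Crabp2 (1.74, SE 0.79) had positive differences too. Cyp26a1, which degrades retinoic acid (-0.85, SE 0.84), Cdx1 (-0.38, SE 0.30) and Fgf8, a ligand of the primitive streak (-0.34, SE 1.83), had negative ones. Cdx1 was below background in all 6 EpiSC lines, so its difference is one between background readings. Cyp26a1 was above background in T9 and C1a1 alone, and Fgf8 in all EpiSC lines but E5.

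Hox cofactor genes were read as well. All 7 tested had a positive difference in OG2.2, with a median of 0.51, beside -0.02 over all genes. Limma called none of them, as was so for all genes tested. Among the EpiSC lines 1 of the 7 was highest in OG2.2, beside 16.3% of all genes. Meis2, a homeodomain partner of Hox proteins, stood at 9.83 in OG2.2 and 10.29 for OG2.1, against 6.05 to 7.09 in the other 4 EpiSC lines, and at 10.41 in R1. Meis1 stood at 8.06 in OG2.2, against 9.19 for OG2.1, 8.57 in E3 and 5.36 to 6.04 in E5, T9 and C1a1, with 6.80 in R1. Among the 7 arrays Meis2 was highest in R1. The part of these cofactors in the Hoxb levels was not tested.

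Polycomb genes, whose products silence Hox clusters, and Trithorax genes, whose products keep them active, were read in OG2.2 minus the other 5 EpiSC lines. Limma called no gene at all there, so the test cannot set these lists apart from the Hoxb genes. The 19 Polycomb genes tested had a median difference of 0.07, beside -0.02 over all genes tested, and 11 of the 19 differences were positive. Their mean level was 8.91 in OG2.2, against 8.65 to 8.94 in the other 5 EpiSC lines. Phc1, a subunit of Polycomb complex 1, reached 13.28 in OG2.2, against 12.44 to 12.77 in the other 5 EpiSC lines (0.62, SE 0.24). Suz12, a core subunit of the methyltransferase complex, stood at 12.69 in OG2.2, against 11.52 to 12.78 in the other 5 EpiSC lines (0.56, SE 0.45). Bmi1 went the other way (-0.56, SE 0.37). It stood at 4.78 in OG2.2, below background, against 4.89 to 5.81 in the other 5 EpiSC lines, of which OG2.1 alone was above background. The 8 Trithorax and demethylase genes tested had a median of -0.04 and a mean level of 9.77 in OG2.2, against 9.62 to 9.93 in the other 5 lines. A p that misses the threshold does not show that these genes were equal.

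Markers of other cells were set beside the Hoxb values. Of 12 fibroblast and feeder markers on the array, 7 were above background in OG2.2, against 4 to 6 in the other 5 lines, and the mean level of the tested ones was 7.67 in OG2.2, against 6.64 to 8.24. Members of this list went both ways. Mmp2, a matrix metalloproteinase gene, stood at 10.55 in OG2.2, against 9.17 to 10.30 in the other 5 EpiSC lines (0.86, SE 0.50). Col1a1, a collagen gene of fibroblasts, stood at 5.99 in OG2.2, against 4.73 to 5.70 (0.86, SE 0.45), so both were highest in OG2.2. Dcn, the proteoglycan gene decorin, stood at 5.81 in OG2.2, against 8.99 for OG2.1, 4.69 in E3, 9.30 in E5, 4.96 in T9 and 6.82 in C1a1 (-1.15, SE 1.81). The listed genes Col1a2 and Col3a1 were not among those tested. Of 13 posterior and paraxial mesoderm markers, 5 were above background in OG2.2, against 2 to 5, with a mean of 6.19 in OG2.2, against 5.04 to 5.85. This list went both ways too, with 5 of the 7 tested differences positive and a median of 0.54, beside -0.02 over all genes tested. Dll1 stood at 6.48 in OG2.2 and 6.76 for OG2.1, and Tcf15 at 7.32 in OG2.2 and 10.07 in R1. Meox1, a somite gene, stood at 7.82 in OG2.2 and 6.05 for OG2.1, against 4.47 to 5.45 in the other 4 EpiSC lines (difference 2.68, SE 0.56, adjusted p = 0.531). Of 12 neural markers, 4 were above background in OG2.2, against 3 to 5, with a mean of 6.50 in OG2.2, against 6.09 to 7.25. Of 12 lateral mesoderm and blood markers, 3 were above background in OG2.2, against 2 to 6, with a mean of 6.21 in OG2.2, against 5.54 to 7.54. Otx2, an anterior epiblast gene, stood at 10.84 in OG2.2, against 11.51 to 12.09 in the other 5 lines (-0.87, SE 0.29, adjusted p = 0.827). The part of differentiated cells in the Hoxb levels was not tested.

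The 8 genes outside the Hox clusters whose pattern over the 7 arrays lay closest to the mean of the 6 Hoxb genes were Elovl6 (Pearson's r = 0.986), Cept1 (0.980), Ensa (0.973), Pdik1l (0.961), Gpld1 (0.959), Pip5k1a (0.958), P4ha1 (0.957) and Sin3a (0.954). Their differences in OG2.2 ran from 0.44 for Sin3a, a corepressor scaffold, to 1.04 for P4ha1, a collagen prolyl hydroxylase, and were smaller than those of the Hoxb genes. Gpld1 and P4ha1 were above background in OG2.2 alone, and the other 6 in all 7 lines. None passed (lowest limma adjusted p = 0.568, Gpld1). OG2.2 was the highest array for each of the 8, and the likeness describes these 7 samples. Among themselves the 6 Hoxb genes had pairwise r from 0.753 to 0.985 over 7 arrays, and from -0.772 to 0.948 over the 6 arrays without OG2.2, where most of their values are background.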

How the data were processed

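The authors deposited bead-summarised probe intensity values on a linear scale, not normalized, and a detection p-value for each, per the file headers. They also deposited log2 values whose sorted values match between the 7 arrays, hence normalized between arrays. The submitters' processing notes list BeadStudio 3.2, lumi and RMA without order or settings. Probe by probe, deviations from the mean in each deposited log2 column correlated with the signal of the same array at 0.820 or more and with any other array at 0.233 or less.

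Normalization used neqc of limma 3.58.1 (background from the detection p-values, offset 16, quantile normalization, log2). A probe stayed in when its detection p was below 0.01 on 1 or more arrays (13396 of 25697), and the brightest kept probe stood for each gene, which left 9213. Limma was fitted 2-sided to all genes with Benjamini-Hochberg adjustment at 0.05, as OG2.2 or OG2.1 minus the other 5 EpiSC lines (4 residual degrees of freedom) and as EpiSC minus ESC (5). It was tested on simulated data. The number of arrays limits the precision. Symbols came from the platform annotation, and gene order from the reference table of GRCm38.p6. The genes named are the 6 Hoxb genes, the other Hoxb genes, up to 4 members of each list with the largest difference in OG2.2, tested neighbours of the cluster, and the 8 genes most alike in pattern. Hox genes outside the 4 with the largest differences, Cyp26a1, Cdx1 and Fgf8 were named after their values were seen. Members and lists were chosen with earlier results of these data known. Alternatives are given below. Probe letters were not used here.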

Additional observations from a re-analysis of the deposited data

Results flagged for a closer look

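For 6 Hoxb genes the OG2.2 array lay far from the other EpiSC lines. The gap between OG2.2 and the next line, as a share of the range over the 6 lines, was 0.905 for Hoxb9, 0.818 for Hoxb6, 0.740 for Hoxb7, 0.709 for Hoxb1, 0.697 for Hoxb4 and 0.688 for Hoxb5. Each exceeded Dixon's critical value for 6 samples, and OG2.2 was the highest line in each case. Of all 9213 genes tested, 69 (0.749%) passed with OG2.2 highest, and 731 (7.93%) passed with any line highest or lowest. Hoxb1, Hoxb4, Hoxb6 and Hoxb9 were tested because OG2.2 alone detected them among the 7 arrays, so OG2.2 was bound to be high for them and the usual chance share does not apply. Hoxb2 did not pass, with OG2.1 at 6.54 below OG2.2 at 8.12. The 6 genes come from the same arrays and are not separate pieces of evidence.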

How the results depend on the processing

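The median Hoxb difference in OG2.2 (2.78) was 4.13 with the deposited log2 values and 1.31 without background correction, and stayed between 2.63 and 2.997 under the other alternatives. The uncorrected setting left out the background correction with its offset and kept the quantile normalization. Why the deposited values gave a larger difference was not tested. Leaving out each line gave 0 to 14 genes called in OG2.2, 0 to 4 Hoxb genes called there, and 1 to 4 genes called in OG2.1. The highest values for OG2.2 came without OG2.1. OG2.1 calls (4) numbered 1 with the deposited values, 1 without background correction, 12 with no detection filter and 7 with the mean of a gene's probes. In EpiSC minus ESC, 0 of the 6 Hoxb genes were called under any alternative run. Values near 0 changed sign. In OG2.1 they were Hoxb1 with the mean of probes (-0.0384) and with its dimmer probe (-0.273), Hoxb6 without OG2.2 (0.0035), Hoxb7 without E3 (-0.0074) and without C1a1 (-0.0129), and Hoxb5 without background correction (-0.0283), without E3 (-0.108), without E5 (-0.0194), without T9 (-0.0284) and without C1a1 (-0.0374). In EpiSC minus ESC they were Hoxb9 with the deposited values (-0.0375) and without OG2.2 (-0.229), and Hoxb5 without OG2.2 (-0.126). Of the alternatives for single genes, 245 kept direction and side of the threshold, 4 gained a call and 13 changed sign. The single-probe fit and the median with Hoxb5 added (2.75) were chosen after seeing the data. No paired analysis was possible because the labels give the lines no replicate numbers that pair them. Raw Hoxb signals of 149.1 to 374.0 units in OG2.2 stand over a median of 127.2 there, so small differences in the other lines were not detectable.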

Other observations

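R1 had a few other Hox genes above background. Hoxc13 stood at 4.60 to 4.86 in the 6 EpiSC lines, against 6.50 in R1. Hoxa5 stood at 7.55 in OG2.2 and 4.44 to 5.69 in the other 5 EpiSC lines, against 6.96 in R1, and Hoxa7 at 7.34 in OG2.2 and 4.37 to 5.27 in the other 5, against 6.30 in R1. E5 was the one line with Hoxd11 above background (5.79), and Hoxc4 was above background in E5 (6.02) and R1 (5.76). Isl1, a transcription factor gene of motor neurons and second heart field, stood at 5.68 in OG2.2, against 6.52 to 9.21 in the other 5 EpiSC lines (-2.42, SE 0.84, limma adjusted p = 0.861), and Zic1, a neural gene, was above background in OG2.2 alone (5.59; 0.94, SE 0.27, adjusted p = 0.683).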
